A study of Gallus gallus with 9 samples.

Results

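The egg yolk precursor genes are the transcripts through which the liver of a laying hen supplies the growing yolk. They were taken as every locus of the deposited count table that carried one of the gene names VTG2, TPRXL, APOVLDLII, APOB or MTTP, a choice of names made with earlier results of these data known, in which TPRXL was counted for its abundance and its place near VTG2. Each name matched 1 locus, which gave 5 loci of 22082, and all 5 passed the filter on low counts that left 12324 loci for testing.

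Vitellogenins and the proteins of very low density lipoprotein (VLDL) are made in the hepatocytes of birds under the control of estrogen, secreted into the blood and taken up by the oocyte through a receptor of the low density lipoprotein receptor family. Vitellogenins are then cut into the lipovitellins and the phosphoserine-rich phosvitin, while VLDL brings most of the yolk lipid. VTG2 and TPRXL stand for the vitellogenin branch here, and no locus carried the name VTG3, another vitellogenin. APOVLDLII (apovitellenin-1, a small protein on the surface of laying-hen VLDL that inhibits lipoprotein lipase), APOB (the structural protein of VLDL) and MTTP (the subunit of the microsomal transfer protein that, as described in mammals, loads lipid onto APOB in the endoplasmic reticulum) stand for the VLDL branch.

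Liver RNA was sequenced from 9 adult Isa Brown hens, a layer strain, at 55 weeks of age, with 1 library per hen and 3 hens per group. The albumen-deprived hens had hatched from eggs that lost 3 ml of albumen to a syringe on day 1 of incubation and received saline for it. The sham-manipulated hens came from eggs that were drilled and sealed without that exchange, and the non-manipulated hens came from untouched eggs. All groups were incubated together and housed in floor pens of a single room on the same feed, and the sham treatment shared the drilling and sealing with the albumen removal but not the saline. The question put to the yolk precursor genes is whether their hepatic transcript level in adult hens differed between these treatments.

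The library totals ran from 13720872 to 21747636 counts (median 16278779). No locus of the 12324 had an adjusted P-value under 0.05 in any of the 3 comparisons (edgeR quasi-likelihood F-test with Benjamini-Hochberg adjustment), with smallest adjusted P-values of 0.226 for albumen-deprived against sham-manipulated hens, 0.0640 for albumen-deprived against non-manipulated hens and 0.109 for sham-manipulated against non-manipulated hens. An unadjusted P-value under 0.05 was found at 879, 398 and 651 loci in that order of comparisons. The Wald test of DESeq2 gave 42, 8 and 10 loci with an adjusted P-value under 0.05, and the likelihood ratio test of edgeR 31, 6 and 6. The liver label was checked with hepatocyte markers, of which 7 of 8 were found, whose summed level was 131675 to 143419 CPM in albumen-deprived, 110849 to 149657 CPM in sham-manipulated and 133151 to 136697 CPM in non-manipulated hens. CPM are counts scaled to a fixed library total and, unless stated otherwise, corrected by trimmed mean of M-values (TMM). The marker sums of this paragraph are without TMM scaling. ALB (albumin) alone held 9.57% to 13.1% of the counted reads of a hen, so the hepatocyte sum was mostly ALB. Over the 9 hens the macrophage markers summed to 538 to 1692 CPM. The stellate and fibroblast markers summed to 157 to 400 CPM and the endothelium markers to 274 to 420 CPM. The part of these cell types in the results was not tested. The erythrocyte markers (8 loci for 6 of 11 genes) stayed at or below 3.18 CPM in sum. Of these 8 loci, 3 were at 0 in all hens and 1 passed the filter, and marker genes that were not found could not be counted. The oviduct markers (5 loci for 3 of 6 genes) stayed at or below 5.23 CPM. The oviduct sum was 0.430 to 0.784 CPM in albumen-deprived, 1.56 to 5.23 CPM in sham-manipulated and 0.146 to 1.46 CPM in non-manipulated hens, and its part in the results was not tested. In bulk liver, fewer cells of a type and less RNA per cell cannot be told apart.

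The 5 loci lie on 4 chromosomes of the Galgal4 build. VTG2 (vitellogenin-2 precursor, XLOC_017211) spans 15416308 to 15464815 on the plus strand of chromosome 8, with 35 exons and a summed exon length of 9287 bases. TPRXL (XLOC_017220) spans 17537046 to 17581215 on the same strand of chromosome 8, also with 35 exons, and 7484 bases of exon. The file gives this locus the gene name TPRXL but the description vitellogenin-1, and its protein accession belongs to the gene called VTG1 in the RefSeq annotation of the GRCg7b assembly. The value printed for TPRXL is therefore that of a locus annotated as a vitellogenin. Its start lies 2072231 bases beyond the end of VTG2. APOVLDLII (XLOC_001785) is the shortest of the 5, with 4 exons and 763 bases of exon at 82609206 to 82612227 on the minus strand of chromosome 1. APOB (XLOC_012709) is the longest, with 29 exons and 16289 bases at 101880367 to 101916760 on the minus strand of chromosome 3. MTTP (XLOC_013504) lies at 59638368 to 59667361 on the plus strand of chromosome 4, with 18 exons and 4233 bases.

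Of the 18 identified loci within 200 kb of VTG2, 11 were on its strand and 1 overlapped it. The overlapping locus, named CTBS /// ENSGALG00000020772 (XLOC_017212), covers 15439375 to 15501220 and shares 25441 bases of genomic span with VTG2. Its count was 7.53% to 10.2% of the VTG2 count in the same hen (median 8.66%). Both loci lie on the plus strand and the libraries were unstranded, so strand could not separate their reads. Reads on exons of both were left out by the authors' counting. How VTG2 reads were divided between these loci is therefore uncertain. The log2-fold change (± SE) of the CTBS locus was 0.35 ± 0.18 for albumen-deprived against sham-manipulated hens (adjusted P = 0.757, edgeR), 0.06 ± 0.18 for albumen-deprived against non-manipulated hens (adjusted P = 1.00) and -0.28 ± 0.18 for sham-manipulated against non-manipulated hens (adjusted P = 0.926), none of them under 0.05 before adjustment. The neighbours that did not overlap VTG2 averaged at most 348 CPM without TMM scaling, the level of MCOLN2, a lysosomal cation channel.

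The yolk precursor loci, of which TPRXL had been counted for its abundance, took a large part of every library. Together they held 19.9%, 19.7% and 20.7% of the counted reads in the albumen-deprived hens, 18.5%, 17.4% and 18.4% in the sham-manipulated hens and 22.1%, 20.6% and 21.3% in the non-manipulated hens. The 3 sham-manipulated hens were the lowest and overlapped neither other group, while the albumen-deprived and non-manipulated hens overlapped. The Wilson 95% interval of such a share was at most 0.0220 percentage points on either side, which covers counting error only. VTG2 and TPRXL together took 11.5%, 10.4% and 12.2% in albumen-deprived, 9.88%, 9.29% and 9.59% in sham-manipulated and 11.7%, 11.1% and 11.6% in non-manipulated hens.

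**Figure D1:**
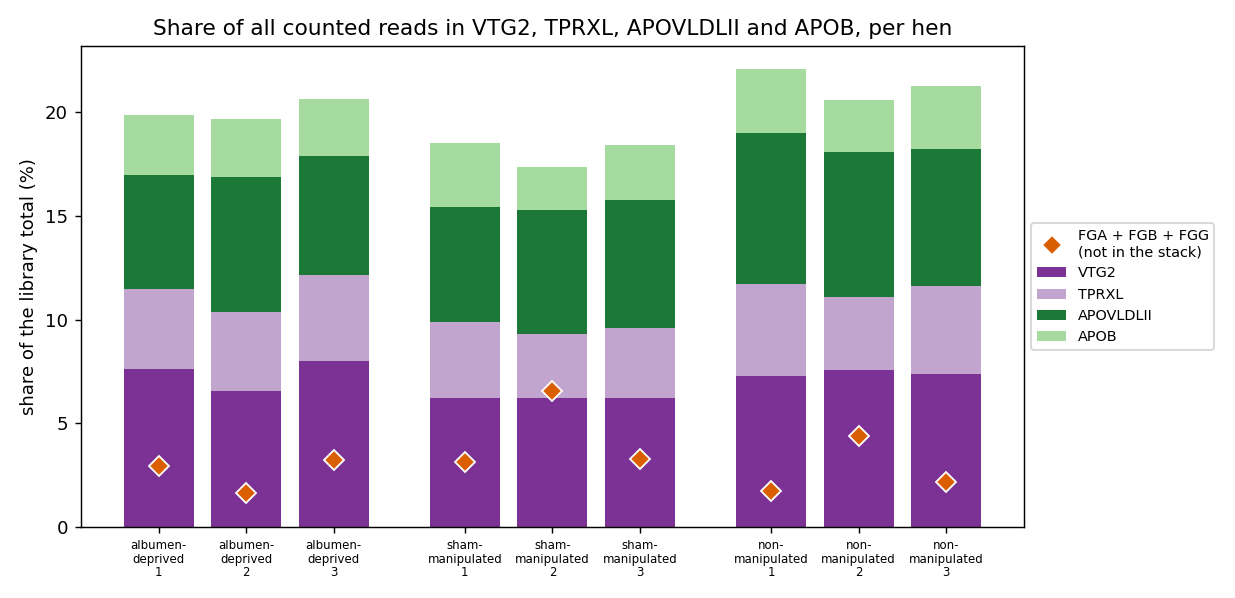
Share of each library's counted reads (%, y axis) in VTG2, TPRXL, APOVLDLII and APOB, stacked, for each of the 9 hens, with the summed share of the 3 fibrinogen chains (FGA, FGB and FGG) as diamonds that are not part of the stack. MTTP, at no more than 0.0107% of a library, is too small to draw. The 3 sham-manipulated stacks are the lowest, and the fibrinogen share is highest in sham-manipulated hen 2 (6.54%).

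Among all loci the mean CPM over the 9 hens, here without TMM scaling, ranked ALB, serum albumin, first. VTG2, APOVLDLII, TPRXL and APOB followed at places 2 to 5, and MTTP at place 1376. TPRXL had been counted for its abundance, so its high place followed from that choice. A longer transcript gives more reads, so levels were also compared per length, as RPKM computed from the counts. On this scale APOVLDLII was first of all loci with a mean of 82079 RPKM, VTG2 at place 3 with 7559, TPRXL at place 7 with 5052, APOB at place 20 with 1700 and MTTP at place 1833 with 19.3. The order of the 5 per length was the same in every hen. APOVLDLII was 8.70 to 12.2 times VTG2 (median 11.3), VTG2 was 1.32 to 1.74 times TPRXL (median 1.49), VTG2 was 3.57 to 5.31 times APOB (median 4.26) and APOB was 68.3 to 129 times MTTP (median 87.9). No neighbours in that order exchanged places in any hen.

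VTG2, the most read of the 5, was measured at 80539, 63646 and 80952 CPM in the albumen-deprived hens, 55818, 67397 and 57789 CPM in the sham-manipulated hens and 73808, 82995 and 73105 CPM in the non-manipulated hens. The sham-manipulated hens lay below all non-manipulated hens but overlapped the albumen-deprived hens, where hen 2 was low. The mean was 75046 ± 9875 CPM in albumen-deprived, 60335 ± 6195 CPM in sham-manipulated and 76636 ± 5519 CPM in non-manipulated hens (SD, n = 3 each). None of the 3 differences passed the test of edgeR at P under 0.05, adjusted or not. VTG2 had a log2-fold change of 0.31 ± 0.20 (SE) for albumen-deprived against sham-manipulated hens (adjusted P = 0.791), -0.03 ± 0.20 for albumen-deprived against non-manipulated hens (adjusted P = 1.00) and -0.35 ± 0.20 for sham-manipulated against non-manipulated hens (adjusted P = 0.920). Before TMM scaling the share of the library was 7.65%, 6.56% and 8.03% in albumen-deprived and 6.22%, 6.24% and 6.22% in sham-manipulated hens, so on that scale these groups did not overlap.

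TPRXL, the locus described as vitellogenin-1, had 40494, 36914 and 41579 CPM in albumen-deprived hens, 32878, 32960 and 31300 CPM in sham-manipulated hens and 44984, 38430 and 41682 CPM in non-manipulated hens. In these TMM-scaled values every sham-manipulated hen was below every hen of both other groups, and those other groups overlapped each other. The mean was 39662 ± 2441 CPM in albumen-deprived, 32380 ± 936 CPM in sham-manipulated and 41699 ± 3277 CPM in non-manipulated hens (SD, n = 3 each). Although these groups did not overlap, the difference missed P under 0.05 before and after adjustment in the edgeR test, with a log2-fold change of 0.29 ± 0.17 (SE) for albumen-deprived against sham-manipulated hens (adjusted P = 0.785) and -0.36 ± 0.17 for sham-manipulated against non-manipulated hens (adjusted P = 0.906, 95% interval -0.76 to 0.03). Between albumen-deprived and non-manipulated hens it was -0.07 ± 0.17 (adjusted P = 1.00). The difference between sham-manipulated and non-manipulated hens reached an unadjusted P-value under 0.05 in the likelihood ratio test of edgeR, and under 0.001 in the Wald test of DESeq2, where the adjusted P-value was 0.176, the lowest of its alternatives (range 0.176 to 1.00). For albumen-deprived against sham-manipulated hens the Wald test also gave an unadjusted P-value under 0.05 (adjusted P = 0.304). Within a hen, TPRXL reads were 0.463 to 0.609 times VTG2 reads, and the ratio overlapped between all groups. Before TMM scaling the TPRXL share was 3.66%, 3.05% and 3.37% in sham-manipulated and 4.44%, 3.51% and 4.22% in non-manipulated hens. On that scale these groups overlapped. In albumen-deprived hens the share was 3.84%, 3.81% and 4.12%, above all sham-manipulated hens.

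APOVLDLII had 57575, 63169 and 57893 CPM in albumen-deprived hens, 50133, 64879 and 57231 CPM in sham-manipulated hens and 73763, 76781 and 65210 CPM in non-manipulated hens. The non-manipulated hens were above all others, by a narrow margin over sham-manipulated hen 2, and the albumen-deprived and sham-manipulated hens overlapped. Means were 59546 ± 3142, 57415 ± 7375 and 71918 ± 6002 CPM (SD, n = 3 each, albumen-deprived, sham-manipulated and non-manipulated hens). No difference passed the edgeR test before or after adjustment. The estimates on the log2 scale were 0.05 ± 0.20 (SE) for albumen-deprived against sham-manipulated hens (adjusted P = 0.975), -0.27 ± 0.20 for albumen-deprived against non-manipulated hens (adjusted P = 1.00) and -0.32 ± 0.20 for sham-manipulated against non-manipulated hens (adjusted P = 0.920).

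APOB had 30526, 27229 and 27887 CPM in albumen-deprived hens, 27448, 22537 and 24733 CPM in sham-manipulated hens and 31260, 27428 and 30118 CPM in non-manipulated hens. The groups overlapped in all 3 comparisons, with the lowest value in sham-manipulated hen 2. Means were 28547 ± 1745 CPM in albumen-deprived, 24906 ± 2460 CPM in sham-manipulated and 29602 ± 1967 CPM in non-manipulated hens (SD, n = 3 each). The log2-fold changes of 0.20 ± 0.17 (SE) for albumen-deprived against sham-manipulated hens (adjusted P = 0.831, edgeR), -0.05 ± 0.17 for albumen-deprived against non-manipulated hens (adjusted P = 1.00) and -0.25 ± 0.17 for sham-manipulated against non-manipulated hens (adjusted P = 0.932) did not pass the test before or after adjustment.

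**Figure D2:**
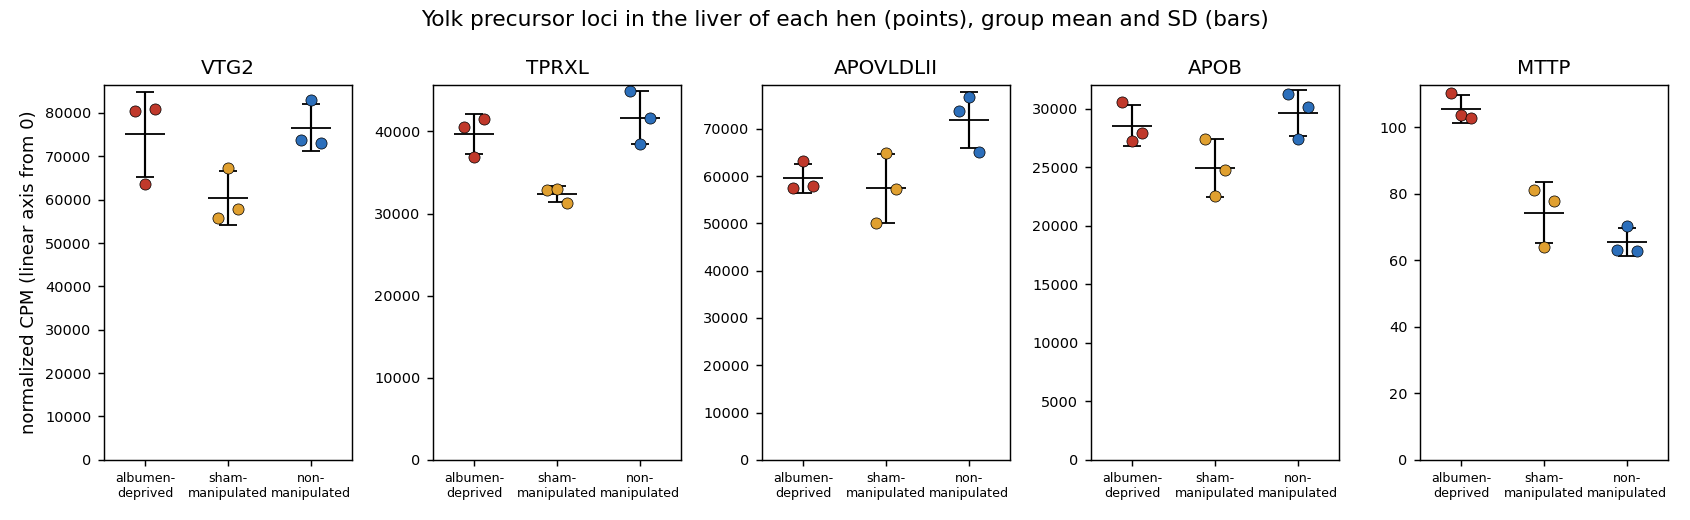
Level of each yolk precursor locus (normalized CPM, linear axes that start at 0) in the 3 hens of each group as points, with the group mean and SD as bars. MTTP is highest in the 3 albumen-deprived hens (103 to 110 CPM), and TPRXL is lowest in the 3 sham-manipulated hens (31300 to 32960 CPM).

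MTTP was the 1 locus of the 5 with an unadjusted P-value under 0.05. Its raw counts were 1705, 1814 and 1561 in albumen-deprived hens, 1400, 1286 and 1181 in sham-manipulated hens and 854, 1053 and 1121 in non-manipulated hens, with a counting error of 2.35% to 3.42% per library. In CPM these were 110, 104 and 103 in albumen-deprived, 81.1, 63.9 and 77.9 in sham-manipulated and 63.0, 70.3 and 62.9 in non-manipulated hens. All 3 albumen-deprived hens lay above all 6 other hens, and the sham-manipulated and non-manipulated hens overlapped. The mean was 106 ± 4.12 CPM in albumen-deprived, 74.3 ± 9.19 CPM in sham-manipulated and 65.4 ± 4.26 CPM in non-manipulated hens (SD, n = 3 each).

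In the albumen-deprived hens MTTP was higher than in sham-manipulated hens by a log2-fold change of 0.51 ± 0.12 (SE), a 1.42-fold difference (95% interval 1.17 to 1.72) that passed P under 0.05 before adjustment but not after it (adjusted P = 0.554, edgeR). It was higher than in non-manipulated hens by 0.69 ± 0.12, a 1.61-fold difference (95% interval 1.33 to 1.96) that passed P under 0.001 before adjustment but again not after it (adjusted P = 0.967, edgeR). The sham-manipulated hens differed from the non-manipulated hens by 0.18 ± 0.12 (adjusted P = 0.926, edgeR). Both comparisons of the albumen-deprived hens use the same 3 libraries of that group, so they are not independent. An exact permutation test of the single locus gave P = 0.1 (two-sided) in each, the smallest that 3 against 3 hens allow. MTTP was no DE gene by the study's stricter cut-off of P under 0.001 and a log2-fold change over 1. The study does list MTTP among the genes it grouped by function, which it took at a looser cut-off on P-value and fold change. That list was drawn from the same libraries, and MTTP was named here with earlier results of these data known. The listing and the P-values above are therefore not independent observations. Under the Wald test of DESeq2 the adjusted P-value was 0.0422 against sham-manipulated hens and 0.00116 against non-manipulated hens (range over all alternatives 0.0422 to 0.929 and 0.00116 to 1.00). The log2-fold change stayed between 0.41 and 0.58 against sham-manipulated hens and between 0.66 and 0.74 against non-manipulated hens in every alternative, always with an unadjusted P-value under 0.05.

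Counted over the 5 loci, no locus was a DE gene in any comparison. Over all loci tested, 0.105% were DE genes in albumen-deprived against sham-manipulated hens, 0.0487% in albumen-deprived against non-manipulated hens and 0.0649% for sham-manipulated against non-manipulated hens. An unadjusted P-value under 0.05 was reached by 1 of 5 loci in albumen-deprived against sham-manipulated hens, where 7.13% of all loci reached it, and by 1 of 5 in albumen-deprived against non-manipulated hens, where 3.23% did. With sham-manipulated against non-manipulated hens it was 0 of 5, against 5.28% of all loci. The DESeq2 Wald test gave 4 of 5 there, and 654 of the 12324 loci. Overlap of the groups was counted in TMM-scaled CPM. The groups did not overlap at 2 of 5 loci (TPRXL and MTTP) in albumen-deprived against sham-manipulated hens, with 12.8% of all loci not overlapping. They did not overlap at 2 of 5 (APOVLDLII and MTTP) in albumen-deprived against non-manipulated hens, with a background of 8.39%, and at 3 of 5 (VTG2, TPRXL and APOVLDLII) in sham-manipulated against non-manipulated hens, with a background of 9.71%.

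By direction, all 5 estimates were above 0 in albumen-deprived against sham-manipulated hens (median 0.29, all loci -0.01 on the log2 scale). In albumen-deprived against non-manipulated hens 1 was above and 4 were below 0 (median -0.05, all loci 0.01), and the counts were also 1 and 4 for sham-manipulated against non-manipulated hens (median -0.32, all loci 0.01). MTTP was the one above 0 in both. These comparisons share their hens in pairs, so a low group, as the sham-manipulated hens were for VTG2 and TPRXL, enters more than one of them.

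**Figure D3:**
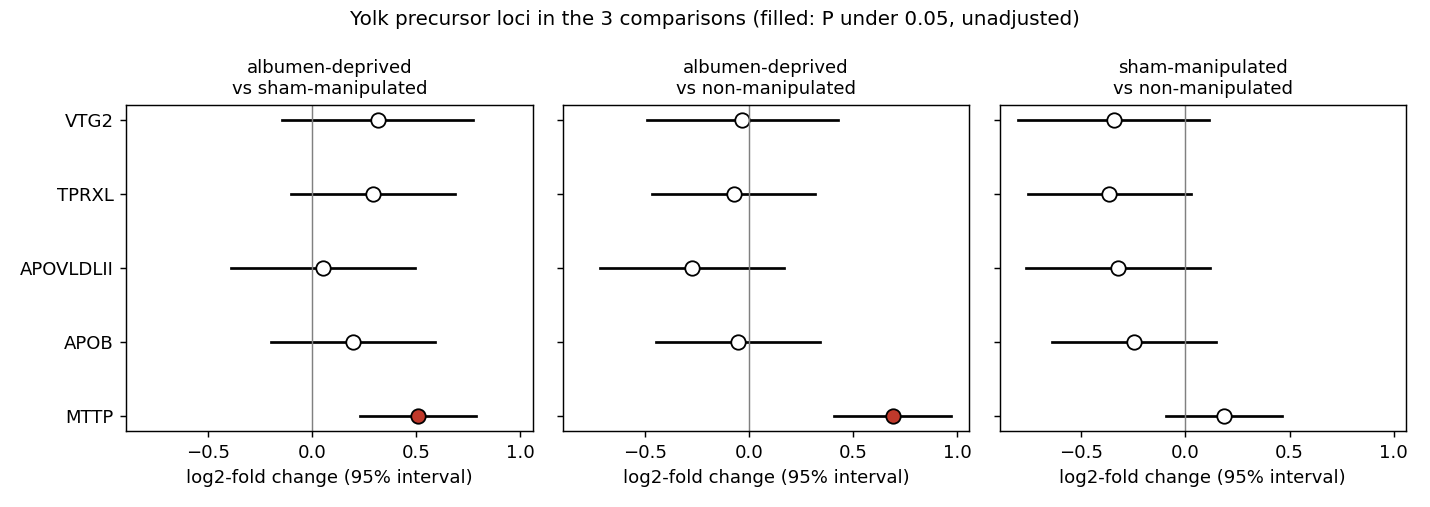
Log2-fold change (x axis) of each yolk precursor locus with its 95% interval in the 3 comparisons, positive values being higher in the group named first. Filled circles mark P under 0.05 without adjustment, which MTTP alone reached, at 0.51 and 0.69, and the intervals of the other 4 loci include 0 in every comparison.

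The spread between hens of a group was smaller at these loci than at the median tested locus. The within-group SD of log2 CPM was 0.15 for VTG2, 0.14 for APOVLDLII, 0.11 for APOB, 0.09 for TPRXL and 0.12 for MTTP, while the median over all loci tested was 0.26. In these TMM-scaled values only 2.74% of loci had a smaller SD than TPRXL and 20.0% a smaller SD than VTG2. These shares cover loci of all levels, also those just above the filter, and loci of similar level were not compared as a set. ALB, the most read locus, had a within-group SD of 0.20. Before TMM scaling, TPRXL held 3.92 ± 0.17%, 3.36 ± 0.30% and 4.06 ± 0.49% of the library (albumen-deprived, sham-manipulated and non-manipulated hens, SD, n = 3 each). In the same order VTG2 held 7.41 ± 0.76%, 6.23 ± 0.013% and 7.42 ± 0.14%. On that scale TPRXL varied more than VTG2 in sham-manipulated and non-manipulated hens. Counting error was at most 0.163% per library for the 4 abundant loci. Over all 9 hens the highest CPM was 1.49 times the lowest for VTG2, 1.44 times for TPRXL, 1.53 times for APOVLDLII, 1.39 times for APOB and 1.75 times for MTTP.

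Sham-manipulated hen 2 stood apart in the share of its reads on the 3 fibrinogen chains, plasma clotting proteins made by hepatocytes, whose reads add up with those of the yolk precursors to the same library total. That share was 2.95%, 1.67% and 3.26% in albumen-deprived, 3.16%, 6.54% and 3.28% in sham-manipulated and 1.73%, 4.39% and 2.17% in non-manipulated hens. In TMM-scaled CPM the same hen was the lowest of its group for MTTP and APOB and the highest for VTG2 and APOVLDLII. As a share of the library its APOVLDLII (6.01%) was below that of sham-manipulated hen 3 (6.16%). Its VTG2 share (6.24%) was close to the 6.22% of the other sham-manipulated hens. Without sham-manipulated hen 2, the MTTP difference was 0.41 for albumen-deprived against sham-manipulated hens (adjusted P = 0.476, edgeR). For sham-manipulated against non-manipulated hens it was 0.28 (adjusted P = 0.715, edgeR), and both had an unadjusted P-value under 0.05. The part of fibrinogen in these results was not tested.

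Whether the loci varied together across hens was described with 10 pairwise correlations of log2 CPM over the 9 hens. The highest was between APOB and TPRXL (Pearson r = 0.83, exact permutation P = 0.00434, adjusted 0.0869, Spearman rho = 0.82, permutation P = 0.0108, adjusted 0.108), and it was 0.81 without the 2 hens farthest from the APOB median. VTG2 and TPRXL followed (r = 0.77, exact permutation P = 0.0191, adjusted 0.127, rho = 0.67, permutation P = 0.0589, adjusted 0.277). That r was 0.49 without sham-manipulated hens 1 and 3, the 2 hens farthest from the VTG2 median, whose removal also narrows the range of VTG2. None of the 20 relations, r and rho for each pair, had an adjusted P-value under 0.05.

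The hens come from 3 groups, and part of these correlations lay between the groups. The permutation test exchanged hens freely across groups, so its P-values do not separate group differences from variation within groups. On deviations from the group means, r was 0.50 for APOB with TPRXL and 0.25 for VTG2 with TPRXL. APOVLDLII with APOB was 0.15 over all hens and -0.81 on the deviations. APOVLDLII with MTTP was the lowest pair over all hens (r = -0.53, exact permutation P = 0.148, rho = -0.62, adjusted P = 0.328 for r). The median r over the 10 pairs was 0.31, over the 6 pairs without MTTP 0.52, and over the 10 pairs on the deviations -0.25. All values share the library total of their hen.

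The loci whose pattern over the 9 hens was most like that of VTG2 were CCT2 /// ENSGALG00000010018 (a merged locus that includes a chaperonin subunit, r = 0.91), DYNC1H1 (dynein heavy chain, r = 0.91), ZNF507 (a zinc finger protein, r = 0.91), ARID5B (r = 0.90) and MBIP (r = 0.90). For APOVLDLII they were ENSGALG00000028221 (r = 0.95), PFDN4 (a prefoldin subunit, r = 0.94), LSM14B (r = 0.91), PLA2G10 (a secreted phospholipase, r = 0.91) and ARL1 (a Golgi GTPase, r = 0.91). For MTTP, added after its values were seen, they were RAB17 (r = 0.95), SPATA6 (r = 0.92), PIAS4 (r = 0.91), FBRSL1 (r = 0.90) and DENND1B (r = 0.87). The 95th percentile of r over all loci was 0.60 for VTG2, 0.61 for APOVLDLII and 0.56 for MTTP, and with 12324 loci and 9 hens such values are given as a description only. The 5 yolk precursor loci were left out of this ranking.

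The deposited FPKM values, which the authors had passed through full quantile normalization, do not carry the hen-to-hen variation of the 4 abundant loci. VTG2 is listed at 3626, TPRXL at 4499, APOVLDLII at 44130 and APOB at 443 FPKM in each of the 9 hens. All hens thus share a single value at each of these loci, although the raw VTG2 counts ran from 875618 to 1357111. Of 13599 loci with an FPKM value, 9 were constant in this way, and 7 of them shared 1 value once multiplied by their length. MTTP kept 9 distinct values, at 21.1, 20.4 and 21.9 FPKM in albumen-deprived, 18.1, 11.9 and 15.8 FPKM in sham-manipulated and 11.7, 13.5 and 12.4 FPKM in non-manipulated hens. On these values limma gave MTTP a difference of 0.46 on the log2(FPKM + 1) scale for albumen-deprived against sham-manipulated hens (adjusted P = 0.639) and 0.71 for albumen-deprived against non-manipulated hens (adjusted P = 0.983), both under 0.05 before adjustment.

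**Figure D4:**
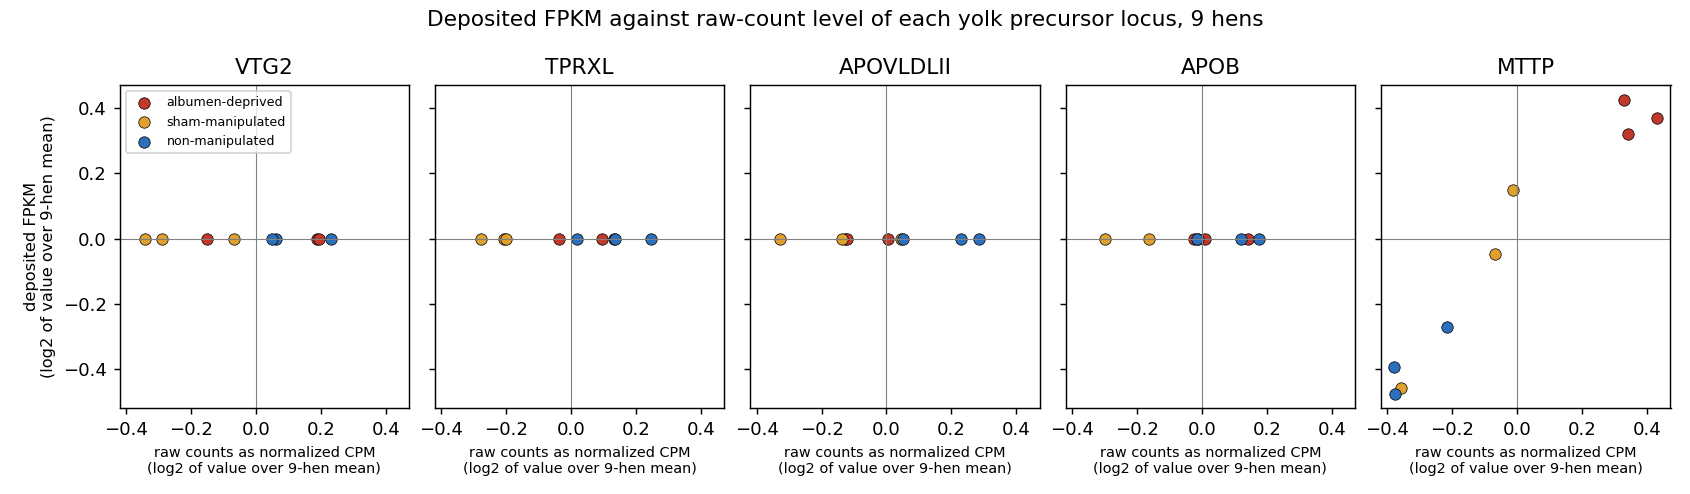
Deposited FPKM (y axis) against normalized CPM from the raw counts (x axis), each as log2 of a hen's value over the mean of the 9 hens, for each yolk precursor locus. VTG2, TPRXL, APOVLDLII and APOB form flat lines at 0 because they have 1 FPKM value in all hens, while MTTP varies on both scales.

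Beside the 5 loci, 7 lists of genes that act with them were read in the same fit. Of 10 tested loci for other plasma proteins that are carried to the yolk or handle it, none passed P under 0.05 before adjustment in any comparison, nor did any in the likelihood ratio test or the Wald test of DESeq2. Of the 17 names in this list 10 were found. The most abundant per length of these were ALB (albumin), GC (vitamin D-binding protein) and TTR (transthyretin). The listed names TF (transferrin) and VTG3 (a vitellogenin) were among those not found. A locus named LTF but described as ovotransferrin precursor was above GC and TTR, at 3942 RPKM, and was not counted in this list. The list median log2-fold change was 0.25 for albumen-deprived against sham-manipulated hens and 0.13 for albumen-deprived against non-manipulated hens. It was -0.16 for sham-manipulated against non-manipulated hens. ALB had a mean of 126753 ± 8438 CPM in albumen-deprived, 109522 ± 24897 CPM in sham-manipulated and 125881 ± 2724 CPM in non-manipulated hens (SD, n = 3 each).

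None of 5 other apolipoprotein loci passed in the quasi-likelihood or likelihood ratio test (APOOL, a mitochondrial protein by function, was 1 higher locus in the Wald test of albumen-deprived against sham-manipulated hens). The list had medians of 0.22, -0.05 and -0.26 in the same order of comparisons. APOA1, the main protein of high density lipoprotein, had 1363 ± 673 CPM in albumen-deprived, 1126 ± 641 CPM in sham-manipulated and 1553 ± 714 CPM in non-manipulated hens (SD, n = 3 each). APOH and the locus APOA5 /// BUD13 /// ZNF259 were the other most abundant ones. Reads of that merged locus could not be assigned to APOA5 alone, and its value of 0.22 was the first of the list medians. None of 27 loci for lipoprotein assembly and export from the endoplasmic reticulum passed in any of the 3 tests (medians -0.13, -0.16 and -0.05). They include P4HB, protein disulfide isomerase and the partner subunit of MTTP, with 634 ± 22.9 CPM in albumen-deprived, 696 ± 69.8 CPM in sham-manipulated and 757 ± 186 CPM in non-manipulated hens (SD, n = 3 each). The chaperones CALR and HSP90B1 were with P4HB the most abundant of that list per length.

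Among 12 loci for estrogen receptors and their coregulators, an unadjusted P-value under 0.05 was reached by 2 higher loci (ESR2 and NRIP1) in albumen-deprived against sham-manipulated hens, by 1 higher locus (ESR2) in albumen-deprived against non-manipulated hens and by 0 loci for sham-manipulated against non-manipulated hens, where the likelihood ratio and Wald tests also gave 0. Over all loci the shares were 7.13%, 3.23% and 5.28%, so that these few loci are given as single values and not as a result about the list. In albumen-deprived against sham-manipulated hens the likelihood ratio test called 1 higher locus of the 12, and the Wald test 2. The list medians were 0.06, 0.12 and 0.09. ESR2, estrogen receptor beta, had 21.8, 38.3 and 29.2 CPM in albumen-deprived, 20.1, 10.0 and 20.5 CPM in sham-manipulated and 15.9, 13.3 and 19.6 CPM in non-manipulated hens, so that every albumen-deprived hen was above every other hen. Its log2-fold change (± SE) was 0.82 ± 0.30 against sham-manipulated hens (adjusted P = 0.664, edgeR) and 0.87 ± 0.30 against non-manipulated hens (adjusted P = 1.00). ESR1, estrogen receptor alpha, the receptor best known for vitellogenin induction, had 99.2 ± 13.9 CPM in albumen-deprived, 79.5 ± 21.1 CPM in sham-manipulated and 72.8 ± 21.6 CPM in non-manipulated hens (SD, n = 3 each), and its estimates of 0.32 and 0.45 for albumen-deprived against sham-manipulated and non-manipulated hens and 0.12 for sham-manipulated against non-manipulated hens did not pass.

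NRIP1, a corepressor of nuclear receptors, differed by 0.33 ± 0.12 (log2-fold change ± SE) in albumen-deprived against sham-manipulated hens (adjusted P = 0.681, edgeR, under 0.05 before adjustment). CEBPB, a liver transcription factor, was with NRIP1 and ESR1 the most abundant of this list per length.

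None of 9 loci for lipoprotein receptors, lipases and plasma remodelling passed (medians 0.10, 0.11 and 0.03), with LRPAP1, ANGPTL4 and LCAT the most abundant per length. For albumen-deprived against non-manipulated hens the likelihood ratio and Wald tests both called 1 higher locus, VLDLR, and for albumen-deprived against sham-manipulated hens the Wald test called 1, SORL1, a sorting receptor. VLDLR, whose protein is the oocyte receptor for vitellogenin and VLDL in the hen, was at 9.02 ± 4.91 CPM in albumen-deprived, 7.53 ± 1.68 CPM in sham-manipulated and 4.61 ± 1.05 CPM in non-manipulated liver (SD, n = 3 each). The albumen-deprived hens had 11.5, 3.37 and 12.2 CPM, so that albumen-deprived hen 2 was the lowest of all 9 hens. None of 12 loci for serine supply and secretory phosphorylation, which phosvitin draws on, passed either (medians 0.00, -0.13 and -0.06). The Wald test called 1 lower locus for albumen-deprived against sham-manipulated hens, PSAT1, and both it and the likelihood ratio test called 1 higher locus for sham-manipulated against non-manipulated hens, SHMT1, which interconverts serine and glycine. PSPH, the last enzyme of serine synthesis, led that list per length, followed by PHGDH and PSAT1, the enzymes of the steps before it.

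Of 12 loci for triglyceride supply, an unadjusted P-value under 0.05 was reached by 1 higher locus in albumen-deprived against sham-manipulated hens and by 1 lower locus for sham-manipulated against non-manipulated hens. Over all loci 7.13% and 5.28% reached it, so 1 of 12 was near the background. In both cases the locus was ELOVL6, an elongase of long-chain fatty acids. The likelihood ratio test called 0 of the 12 loci in albumen-deprived against sham-manipulated hens. ELOVL6 had 786, 568 and 548 CPM in albumen-deprived, 535, 412 and 467 CPM in sham-manipulated and 627, 772 and 596 CPM in non-manipulated hens, with the sham-manipulated hens below all others. The log2-fold change (± SE) was 0.43 ± 0.19 in albumen-deprived against sham-manipulated hens (adjusted P = 0.694, edgeR) and -0.50 ± 0.19 for sham-manipulated against non-manipulated hens (adjusted P = 0.906). The list medians were 0.35, 0.12 and -0.16, and THRSP, SCD and ELOVL6 were the most abundant per length. ACACA, acetyl-CoA carboxylase, chosen after its values were seen, had 628, 384 and 324 CPM in albumen-deprived, 408, 164 and 171 CPM in sham-manipulated and 428, 349 and 173 CPM in non-manipulated hens, and its 0.85 ± 0.44 against sham-manipulated hens missed P under 0.05 (adjusted P = 0.751, edgeR) but not in the Wald test.

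**Figure D5:**
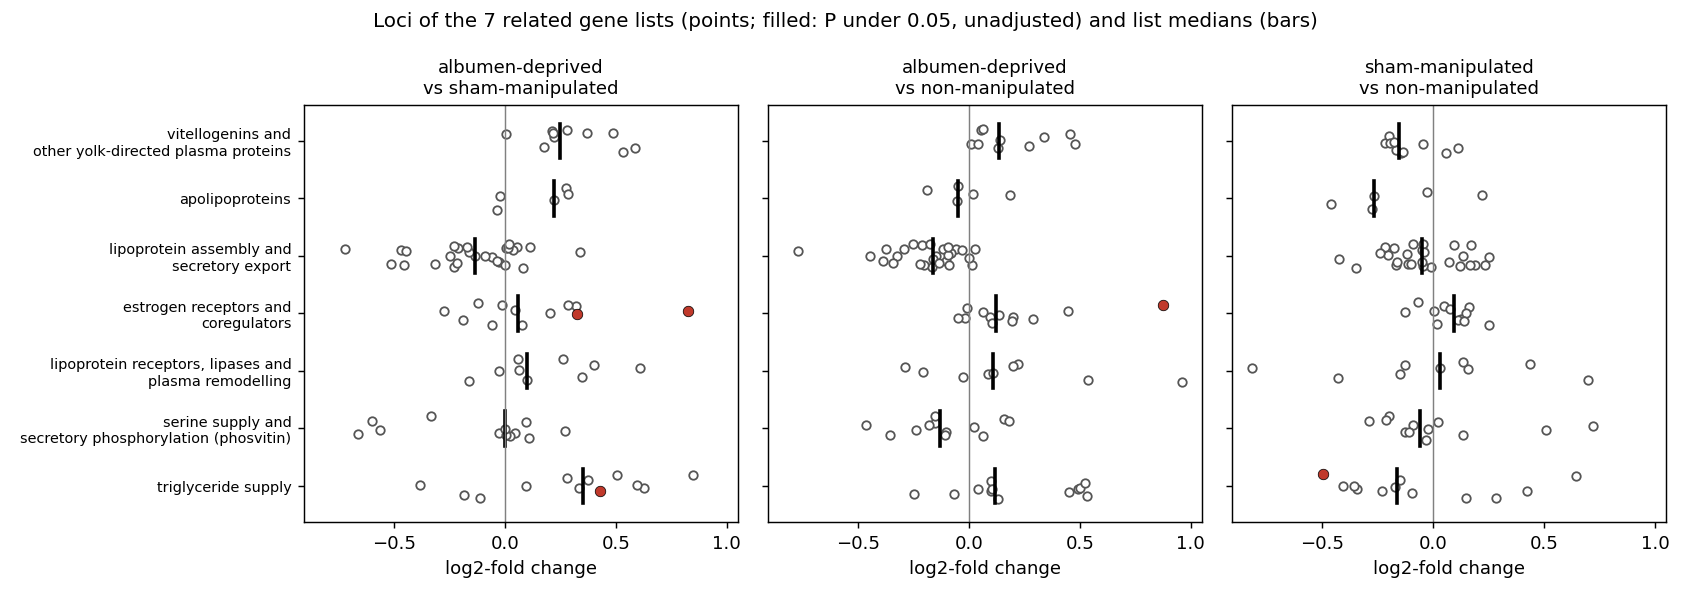
Log2-fold change (x axis) of each tested locus of the 7 related gene lists in the 3 comparisons, with list medians as bars. Filled points, P under 0.05 without adjustment, are ESR2 and NRIP1 in the estrogen receptor list and ELOVL6 in the triglyceride list, and the other 5 lists have none in any comparison.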

How the data were processed

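Liver RNA of 9 hens was sequenced as single-end, unstranded libraries in 1 lane. Per the labels and the study's methods, reads were mapped to Galgal4 with TopHat 2.0.8b, merged with Cufflinks 2.1.1 models and counted per locus with HTSeq 0.5.4p3, reads on several loci being left out. The authors deposited raw counts for 22082 loci, and FPKM values for 13599 loci after quantile normalization, first over bins of GC content and then across libraries. A deposited table of the authors' log2-fold changes, p-values and calls was not used.

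Groups came from the sample labels. Loci with over 1 CPM in at least 3 libraries (12324) were scaled by TMM and tested with the quasi-likelihood F-test of edgeR 4.0.16 (R 4.3.3), 1 coefficient per group over all 9 libraries, 6 residual degrees of freedom, and Benjamini-Hochberg adjustment. SE was the log2-fold change over the square root of F. Log2 CPM used a prior count of 2. DE genes had P under 0.001 and a log2-fold change over 1. Correlations used exact permutation of the hens in Python 3.11.15, with ranks from scipy 1.17.1. Alternatives were DESeq2 1.42.0, limma 3.58.1 on the FPKM values, other scaling, no filter, the likelihood ratio test, 2 groups alone, a replicate block, replicates 1 and 2 only (those of replicate 3 have the latest library codes), and each library left out.

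Each library is a separate hen. Deviations of same-numbered hens from their group means correlated at -0.16 to 0.24 over 9 pairs, and numbers were not used as pairs. The pairs numbered 3 were all positive (0.08, 0.24 and 0.05) and those numbered 1 all negative (-0.08, -0.05 and -0.13). Those numbered 2 had both signs, and the cause was not tested. The members and lists were chosen with earlier results of these data known. Named were all 5 members, neighbours within 200 kb of VTG2, the 5 loci most like VTG2 and APOVLDLII, and per list the 3 most abundant per length and up to 3 with P under 0.05. Loci of 2 genes of these lists are not reported here and were left out of list counts and medians. Promoter and protein sequences were not analysed here.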

Additional observations from a re-analysis of the deposited data

How the results depend on the processing

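Of 258 recomputed fold changes of the 5 loci, 246 kept their direction and their side of the 0.05 threshold on the unadjusted P-value, 9 newly passed, none was lost and 3 turned. Before adjustment, the Wald test of DESeq2 called 3 of the 5 loci (VTG2, TPRXL and MTTP) in albumen-deprived against sham-manipulated hens. It called 2 (APOVLDLII and MTTP) in albumen-deprived against non-manipulated hens. In sham-manipulated against non-manipulated hens it called 4 (VTG2, TPRXL, APOVLDLII and APOB), and the likelihood ratio test called 1 (TPRXL). Among all 12324 loci the Wald test called 886, 407 and 654 before adjustment in that order of comparisons. The likelihood ratio test called 768, 360 and 590. DE genes among all loci, 13, 6 and 8, became 53, 16 and 33 with the likelihood ratio test and 45, 16 and 28 with the Wald test. In albumen-deprived against sham-manipulated hens they became 22 without a filter and 5 on the authors' FPKM values, and in albumen-deprived against non-manipulated hens 13 with replicates 1 and 2 only. Leaving out 1 library gave 9 to 23, 4 to 10 and 4 to 14 DE genes, and 1 to 1, 1 to 1 and 0 to 1 of the 5 loci, the last being MTTP without sham-manipulated hen 2. The counts of 23 and 14 were also without sham-manipulated hen 2, and 21 was without sham-manipulated hen 3. The count of 10 was without albumen-deprived hen 3, and 4 DE genes between sham-manipulated and non-manipulated hens were left without albumen-deprived hen 1, albumen-deprived hen 2 or non-manipulated hen 1. The cause was not tested.

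With 1 library left out, APOVLDLII ran from -0.035 (without sham-manipulated hen 1) to 0.15 in albumen-deprived against sham-manipulated hens, and VTG2 from -0.096 to 0.076 in albumen-deprived against non-manipulated hens, with 0.076 without albumen-deprived hen 2 and 0.025 without non-manipulated hen 2. The correlation of VTG2 with MTTP ran from -0.13 to 0.21, APOVLDLII with APOB from -0.074 to 0.34, APOB with MTTP from -0.17 to 0.41 and TPRXL with MTTP from -0.14 to 0.30, and the median correlation from 0.24 to 0.45. On deviations from the group means the median was -0.25, with VTG2 and APOB at -0.34, VTG2 and MTTP at -0.23, APOVLDLII and APOB at -0.81, APOVLDLII and TPRXL at -0.28 and TPRXL and MTTP at -0.35. With replicates 1 and 2 only, VTG2 and MTTP had -0.048. The cause was not tested.

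The replicate block gave 1, 1 and 0 of the 5 loci and 17, 4 and 6 DE genes in the same order of comparisons, and changed no call of a member. The authors' FPKM values gave a fold change for MTTP alone, since the other 4 loci are constant there. The 95% interval of VTG2 was -0.14 to 0.77 in albumen-deprived against sham-manipulated hens, and counting error was at most 0.163% per library for the 4 abundant loci.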
